A study of Mus musculus with 11 samples.

Results

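Voltage-gated sodium and calcium channel subunit genes were followed across 3 types of mouse embryonic motor neurons. The members were every gene with a probe set that carries a single symbol for a sodium channel alpha or beta subunit (Scn followed by a number and a or b) or for a calcium channel alpha1 (Cacna1), alpha2delta (Cacna2d) or beta (Cacnb) subunit. Where a gene had several probe sets, the brightest on average over the arrays stood for it. This gave 27 genes of the 18193 measured with a single symbol, namely 8 sodium channel alpha, 3 sodium channel beta, 9 calcium channel alpha1, 4 alpha2delta and 3 calcium channel beta subunits.

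RNA came from motor neurons of C57/BL6 embryos that carried the Hb9::GFP reporter, a green fluorescent protein driven by the promoter of the motor neuron gene Mnx1, and all groups carried it. A rhodamine dextran placed on the phrenic or radial nerve of a trunk explant travelled back to the cell bodies, and cells were then sorted by fluorescence from the dissociated spinal cord. Phrenic motor neurons, which drive the diaphragm, gave 4 arrays, motor neurons labelled as GFP-only from segments C3-C5 gave 4, and limb-innervating lateral motor column neurons filled through the radial nerve (LMC radial) gave 3. The labels give no embryonic day, no segment for the LMC radial cells, and nothing on whether replicates came from separate litters, so p-values measure only the spread between arrays.

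A voltage-gated sodium channel is 1 large alpha subunit that forms the pore and senses voltage, with small beta subunits beside it that tune gating and placement, and it carries the upstroke of the action potential. A voltage-gated calcium channel has an alpha1 subunit as its pore, an extracellular alpha2delta subunit that brings it to the membrane and to release sites, and a cytoplasmic beta subunit that helps its export. The alpha1 genes fall into the L type (Cacna1c, Cacna1d, Cacna1f, Cacna1s), the P/Q, N and R types that trigger transmitter release (Cacna1a, Cacna1b, Cacna1e), and the low-threshold T type (Cacna1g, Cacna1h). In motor neurons these channels set spiking, release at the neuromuscular junction and calcium entry during axon growth.

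Expression is given on the log2 scale of the deposited array values, where a difference of 1 is 2-fold. Array medians lay between 4.48 and 4.63, so a value below 5 was treated as near background. Differences are ± SE from limma over all 11 arrays, and a difference passed when its p, adjusted by Benjamini and Hochberg over all 45037 probe sets of the comparison, was under 0.05. A fold given as at least N-fold was computed with values below 5 raised to 5, and the p beside it comes from the fit of the values as deposited. A signal level cannot be compared between genes, because probes differ in brightness. In sorted samples fewer cells of a type and less RNA per cell cannot be told apart.

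The motor neuron markers were present. Of the 7 listed, all had means above 5 in phrenic and C3-C5 GFP-only samples, and 6 of 7 did in LMC radial samples, where Chat was at 4.92. The list averaged 9.32 to 9.41 over phrenic arrays, 9.43 to 9.66 over C3-C5 GFP-only and 8.56 to 8.83 over LMC radial. In LMC radial against C3-C5 GFP-only 3 of 7 fell and 0 rose, beside 3.76% of all probe sets passing. In phrenic against LMC radial 2 rose and 0 fell, beside 6.61%. The part of this in channel gene differences that involve LMC radial samples was not tested. The 9 skeletal muscle markers were all below 5 in every type. The mesenchyme and cartilage list averaged 5.62 to 7.52 over the phrenic arrays, 4.83 to 5.36 over C3-C5 GFP-only and 5.45 to 6.72 over LMC radial, with 2, 5 and 3 of its 11 genes below 5. Phrenic replicate 4 had the highest averages of all arrays for mesenchyme (7.52), neural progenitor (7.54), interneuron (6.26) and Schwann or crest (5.68) markers. In the sensory neuron list 6 of 8 genes were measured and averaged 7.41 to 7.94, with Pou4f1 at 9.43 in phrenic, 9.24 in C3-C5 GFP-only and 9.12 in LMC radial samples. The 25th percentile of an array was 3.18 to 3.20 for replicates 2 and 3 of the phrenic and the C3-C5 GFP-only samples, and 3.26 to 3.38 for the other 7 arrays. Actb, whose 3′ and 5′ control probes report how intact the RNA was, had a 3′ excess of 1.05 to 2.15 in phrenic, 1.07 to 1.98 in C3-C5 GFP-only and 1.01 to 1.13 in LMC radial arrays.

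On the probe set with the highest mean, 4 of the 27 channel genes passed in a pairwise comparison and 23 did not. Not passing does not show that a gene is equal between types. Other probe sets passed for some of the 23, as given below for Cacnb4. The alpha2delta gene Cacna2d3 was lower in phrenic neurons than in both other types. The T-type gene Cacna1g was lower in LMC radial neurons than in C3-C5 GFP-only cells. The sodium channel genes Scn8a and Scn9a were modestly higher in phrenic neurons, Scn8a against both other types and Scn9a against LMC radial neurons. By the moderated F test of any difference among the types, the same 4 of 27 passed, or 14.8%, beside 6.61% of all probe sets. Of the 20 members with a mean of 5 or more in at least 1 type, 20% passed a pairwise comparison, beside 11.5% of all genes at that level.

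**Figure D1:**
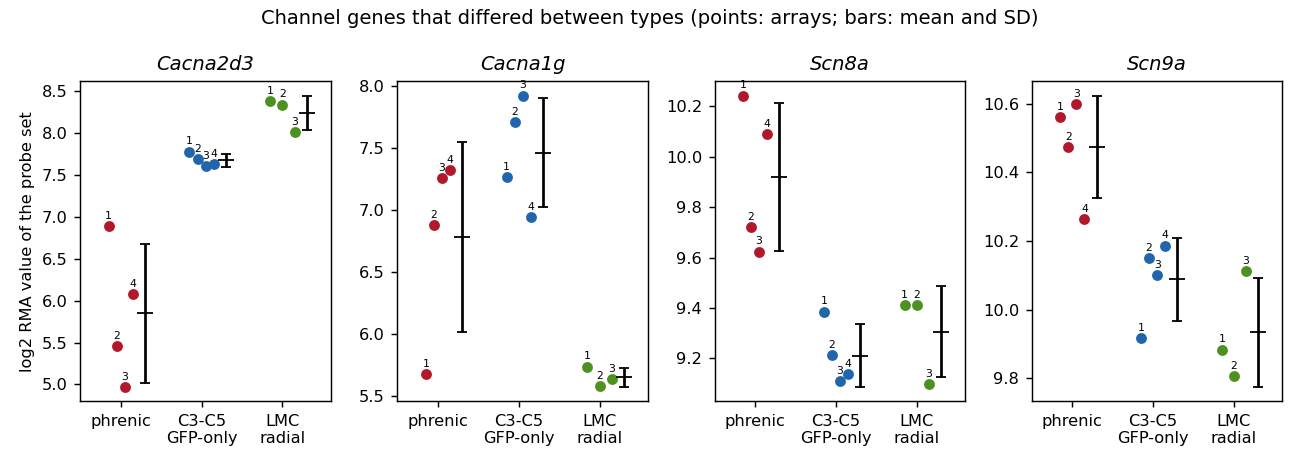
Log2 values of Cacna2d3, Cacna1g, Scn8a and Scn9a on each array (points, numbered by replicate), with the mean and SD of each type at the right (n = 4 phrenic, 4 C3-C5 GFP-only, 3 LMC radial). Each panel has its own vertical scale. The phrenic arrays of Cacna2d3 (4.97 to 6.90) lie below all others, and phrenic replicate 1 of Cacna1g lies among the LMC radial arrays.

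Promoter windows of 300 bases, 250 before and 50 after a RefSeq start site, were available for 3 of these 4 genes, and for 21 of the 27 members (30 windows in all). They are shown because Scn8a and Scn9a were high where Cacna2d3 was low. Sequences are from RefSeq on GRCm38.p6, written 5′ to 3′ on the strand of the gene. The Cacna2d3 window is chr14:29721815-29722114 on the minus strand, the Scn8a windows are chr15:100870395-100870694 and chr15:100936021-100936320 on the plus strand, and the Scn9a window is chr2:66634913-66635212 on the minus strand. Capitals mark matches, on either strand, to the motifs searched.
Cacna2d3: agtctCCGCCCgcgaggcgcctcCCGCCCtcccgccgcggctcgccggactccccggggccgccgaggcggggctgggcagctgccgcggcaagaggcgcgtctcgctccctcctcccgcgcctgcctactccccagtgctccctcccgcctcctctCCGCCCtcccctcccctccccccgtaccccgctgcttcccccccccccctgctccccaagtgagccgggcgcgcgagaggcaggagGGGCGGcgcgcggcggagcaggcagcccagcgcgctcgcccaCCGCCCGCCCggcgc
Scn8a upstream start: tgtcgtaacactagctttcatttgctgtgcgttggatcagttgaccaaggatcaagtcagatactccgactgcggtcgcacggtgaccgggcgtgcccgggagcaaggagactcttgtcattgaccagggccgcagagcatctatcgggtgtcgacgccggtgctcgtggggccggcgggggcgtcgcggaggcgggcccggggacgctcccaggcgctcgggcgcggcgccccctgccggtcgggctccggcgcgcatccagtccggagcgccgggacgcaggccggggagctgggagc
Scn8a downstream start: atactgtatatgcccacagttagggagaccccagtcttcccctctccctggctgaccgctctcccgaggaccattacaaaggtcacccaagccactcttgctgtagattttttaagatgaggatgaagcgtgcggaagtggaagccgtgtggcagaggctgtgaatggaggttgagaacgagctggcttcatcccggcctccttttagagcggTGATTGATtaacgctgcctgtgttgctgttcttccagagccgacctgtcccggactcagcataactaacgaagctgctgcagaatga
Scn9a: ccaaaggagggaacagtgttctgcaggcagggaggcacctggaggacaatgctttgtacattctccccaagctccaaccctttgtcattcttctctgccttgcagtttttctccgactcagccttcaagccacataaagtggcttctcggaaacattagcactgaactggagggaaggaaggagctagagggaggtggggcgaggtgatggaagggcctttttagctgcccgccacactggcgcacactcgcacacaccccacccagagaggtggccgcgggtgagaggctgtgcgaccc
The motifs were the GC box GGGCGG, the TATA box TATAAA, the Hox-Pbx composite site TGATTNAT, the homeodomain core TAATTA and the RE1 left site TTCAGCACC. The Cacna2d3 window held 6 GC box matches, the last 2 of which overlap, and was 81.3% G or C, beside a median of 52.7% over all 32851 windows. A GC box is found in 35.7% of all windows and in 12 of the 30 windows of members. The downstream Scn8a window held 1 Hox-Pbx match, TGATTGAT, beginning 37 bases before the start site. That motif is in 3.22% of all windows, and in 2 of the 30 member windows, the other being of Cacna2d1. No searched motif was found in the upstream Scn8a window or the Scn9a window. A match describes letters only, and no binding was measured.

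Cacna2d3 had the largest differences of any member. It encodes an extracellular alpha2delta subunit, known from pain processing and from presynaptic calcium channel placement. The phrenic arrays, replicates 1 to 4, read 6.90, 5.46, 4.97 and 6.08. The C3-C5 GFP-only arrays read 7.78, 7.69, 7.60 and 7.63, and the LMC radial arrays 8.38, 8.34 and 8.01. Phrenic arrays were the lowest 4 of 11 and overlapped neither group, while LMC radial arrays were the highest 3. The means were 5.85 ± 0.83 (SD, n = 4) over phrenic arrays, 7.68 ± 0.08 (n = 4) over those of C3-C5 GFP-only cells and 8.25 ± 0.20 (n = 3) over LMC radial arrays, so phrenic arrays also varied most. Phrenic minus LMC radial was -2.39 ± 0.35, or 5.25-fold lower (adjusted p = 0.00252 in limma). Against C3-C5 GFP-only the log2 difference was -1.82 ± 0.32, or 3.54-fold lower (adjusted p = 0.0161 in limma). LMC radial was 0.57 above C3-C5 GFP-only with no overlap between their arrays, and this did not pass. The difference from LMC radial passed in each of 24 alternative analyses, with values from -2.74 to -1.76. The call against C3-C5 GFP-only was lost without C3-C5 GFP-only replicate 1, 2 or 3 (highest adjusted p = 0.0547 in limma). It was also lost with the mesenchyme list as a covariate (-1.81 ± 0.52, adjusted p = 0.232 in limma) and in a fit of the 2 types alone (-1.82 ± 0.36, adjusted p = 0.0507 in limma). Within the 7 arrays of higher 25th percentile the phrenic mean differed by -1.22 ± 0.28 from C3-C5 GFP-only without passing (n = 2 and 2, adjusted p = 0.164 in limma) and by -1.76 from LMC radial (n = 2 and 3), and within the other 4 arrays by -2.43 from C3-C5 GFP-only (n = 2 and 2).

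The other alpha2delta genes gave no call. Cacna2d1, the widely expressed subunit that binds gabapentin, had means of 11.50 ± 0.21 (SD, n = 4) over phrenic arrays, 11.33 ± 0.20 (n = 4) over those of C3-C5 GFP-only cells and 11.14 ± 0.06 (n = 3) over LMC radial arrays. A dimmer probe set of Cacna2d1 was lower in LMC radial than in C3-C5 GFP-only samples (4.59 against 5.88, at least 1.85-fold with values below 5 raised to 5, adjusted p = 0.0446 in limma). On it phrenic arrays averaged 4.69, at least 1.82-fold below C3-C5 GFP-only without passing (adjusted p = 0.0637 in limma), while the brightest probe set gave 0.17 ± 0.13 there. A further one, with a mean of 6.91, gave 0.58 ± 0.30 over C3-C5 GFP-only and 1.18 ± 0.32 over LMC radial, neither passing (adjusted p = 0.462 and 0.0533 in limma). These probe sets thus disagree in direction for phrenic against C3-C5 GFP-only. On each of them the LMC radial mean was the lowest. Cacna2d2, known from cerebellar and motor circuits, averaged 6.90 in phrenic, 7.24 in C3-C5 GFP-only and 6.65 in LMC radial samples. Its LMC radial arrays lay below all C3-C5 GFP-only arrays without passing (-0.58 ± 0.20, adjusted p = 0.127 in limma). A second Cacna2d2 probe set pointed the other way, with LMC radial the highest. Cacna2d4, known from the retina, was below 5 on every array.

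Among the pore-forming alpha1 genes, 1 of 9 passed in any comparison. Cacna1g encodes a T-type channel that opens near rest and supports burst firing. Its LMC radial arrays read 5.74, 5.58 and 5.64, and its C3-C5 GFP-only arrays 7.26, 7.71, 7.92 and 6.94. The phrenic arrays, replicates 1 to 4, read 5.67, 6.88, 7.25 and 7.32. LMC radial and C3-C5 GFP-only arrays did not overlap, and phrenic replicate 1 lay within the LMC radial range while the other 3 were above it. The LMC radial mean differed from C3-C5 GFP-only by -1.81 ± 0.36, or 3.50-fold lower (adjusted p = 0.0231 in limma). The call was lost without C3-C5 GFP-only replicate 2 or 3 or any 1 LMC radial array (highest adjusted p = 0.0791 in limma), and within the 7 arrays of higher 25th percentile the difference was -1.45 (n = 3 and 2, adjusted p = 0.302 in limma). With the Actb 3′ excess as a covariate it was -1.20 ± 0.18, smaller by over 1.5 times, and passed (adjusted p = 0.0138 in limma). Phrenic against LMC radial was 1.13 ± 0.36 and did not pass (adjusted p = 0.0949 in limma). Without phrenic replicate 1 it was 1.50 ± 0.24 and passed (adjusted p = 0.00562 in limma). Phrenic against C3-C5 GFP-only did not pass (-0.68 ± 0.34, adjusted p = 0.445 in limma), and did with the Actb 3′ excess as a covariate (-0.91 ± 0.15, adjusted p = 0.0132 in limma). The other T-type gene, Cacna1h, averaged 8.10, 8.13 and 8.22 across phrenic, C3-C5 GFP-only, then LMC radial samples, with no call.

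The genes of the release-triggering channels differed by at most 0.42 between types, and 0 of 3 passed in limma. Cacna1b, the N-type pore, read 10.12, 10.25, 10.03 and 10.07 on phrenic, 9.89, 9.84, 9.76 and 9.95 on C3-C5 GFP-only and 9.69, 9.81 and 9.80 on LMC radial arrays. All phrenic arrays were above all others, by 0.35 ± 0.10 over LMC radial and 0.26 ± 0.09 over C3-C5 GFP-only, and neither passed (adjusted p = 0.0602 and 0.231 in limma). A second probe set of nearly the same brightness gave 0.35 ± 0.09 over LMC radial and passed (adjusted p = 0.0488 in limma). Cacna1e, the R-type pore, was 0.39 ± 0.13 above LMC radial in phrenic samples (adjusted p = 0.101 in limma). Cacna1a, the P/Q-type pore of the mature neuromuscular junction, averaged 6.86 ± 0.31 (SD, n = 4) over phrenic arrays, 7.28 ± 0.20 (n = 4) over those of C3-C5 GFP-only cells and 7.03 ± 0.09 (n = 3) over LMC radial arrays. All phrenic arrays of Cacna1a lay below all C3-C5 GFP-only arrays, and the difference did not pass (-0.42 ± 0.16, adjusted p = 0.268 in limma).

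Of the L-type genes, Cacna1c averaged 8.84 ± 0.32 (SD, n = 4) over phrenic arrays, 8.70 ± 0.15 (n = 4) over those of C3-C5 GFP-only cells and 8.18 ± 0.28 (n = 3) over LMC radial arrays. Phrenic minus LMC radial was 0.67 ± 0.19 and did not pass (adjusted p = 0.0627 in limma), and it passed without phrenic replicate 4 (0.81 ± 0.16, adjusted p = 0.012 in limma). A second Cacna1c probe set gave 0.79 ± 0.23 (adjusted p = 0.0693 in limma). Cacna1d, the L-type pore that opens at lower voltages, averaged 8.85, 8.90 and 8.95 across phrenic, C3-C5 GFP-only, then LMC radial samples. Cacna1f of the retina and Cacna1s of skeletal muscle were below 5 on every array, as were the skeletal muscle markers.

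**Figure D2:**
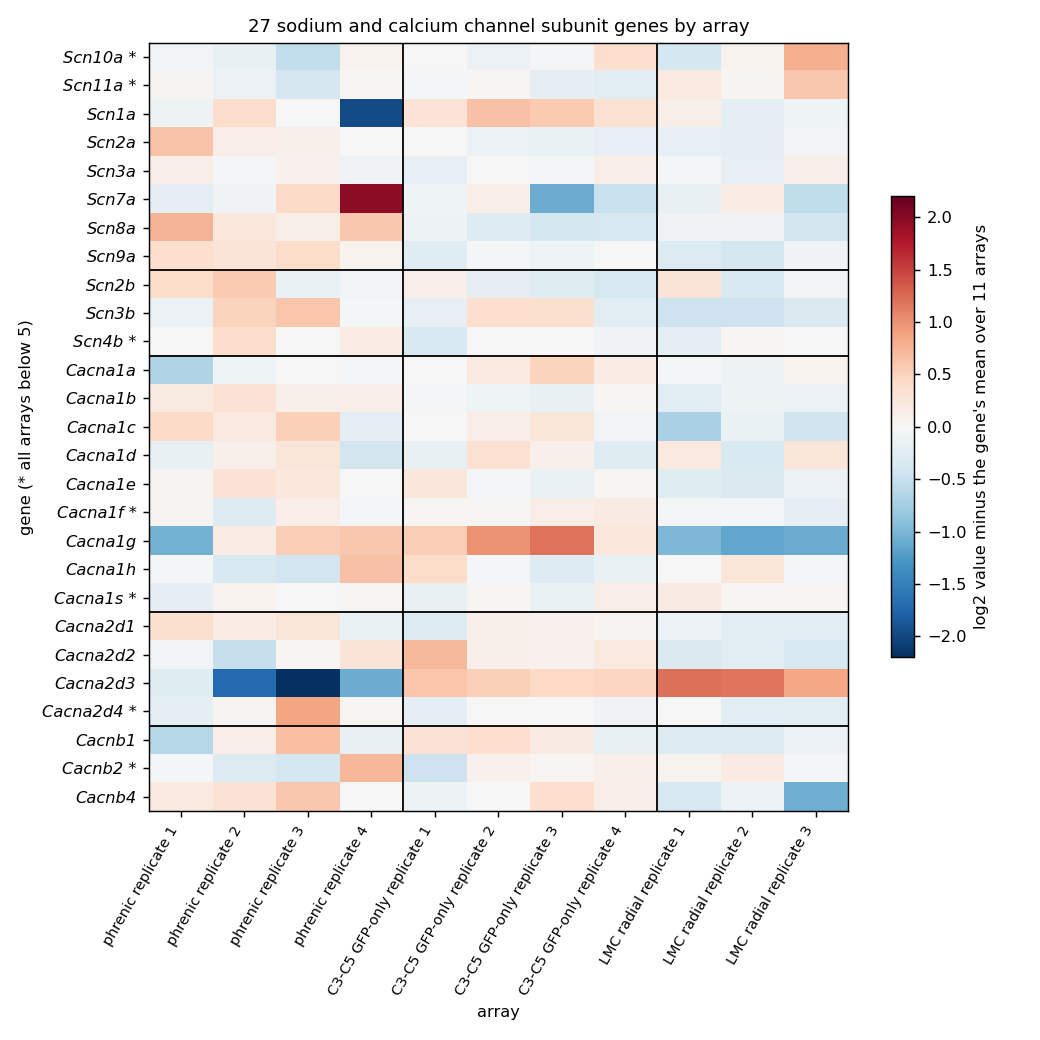
Log2 value minus the gene's own mean over the 11 arrays, for 27 genes (rows, by subunit family) and 11 arrays (columns, by type). Red is above and blue below that mean, and a star marks the 7 genes below 5 on every array. Cacna2d3 is blue on the 4 phrenic arrays, and phrenic replicate 4 stands out in Scn1a (6.72) and Scn7a (6.71).

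In the calcium channel beta family 0 of 3 genes passed in any comparison in limma, with 0, 1 and 1 at an unadjusted p under 0.05 for phrenic against C3-C5 GFP-only, phrenic against LMC radial and LMC radial against C3-C5 GFP-only. Cacnb4, a beta subunit known from its role in cerebellar neurons, came closest. It read 7.09, 7.20, 7.47 and 6.89 on phrenic, 6.76, 6.89, 7.25 and 7.02 on C3-C5 GFP-only and 6.53, 6.74 and 5.80 on LMC radial arrays. LMC radial arrays were the lowest 3 of 11. Phrenic minus LMC radial was 0.81 ± 0.22 (adjusted p = 0.0561 in limma). Both other Cacnb4 probe sets passed for that difference, at 0.92 ± 0.19 (adjusted p = 0.0144 in limma) and, for the dimmest, at least 1.54-fold with values below 5 raised to 5 (adjusted p = 0.0127 in limma). The mean of the 3 probe sets differed by 1.01 ± 0.14 and passed (adjusted p = 0.00115 in limma). So for phrenic against LMC radial the probe set with the highest mean missed the threshold while the dimmer ones and the gene mean did not. For LMC radial minus C3-C5 GFP-only the brightest probe set gave -0.62 ± 0.22 and the dimmest did not pass either (adjusted p = 0.149 and 0.116 in limma). The remaining probe set passed there (-0.78 ± 0.19, adjusted p = 0.0449 in limma), as did the gene mean (-0.73 ± 0.14, adjusted p = 0.0159 in limma). Cacnb1, the skeletal muscle beta subunit that neurons also make, averaged 7.78, 7.96 and 7.54 across phrenic, C3-C5 GFP-only, then LMC radial samples. Cacnb2 was below 5 on every array.

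Scn8a encodes the sodium channel of mature axon initial segments and nodes of Ranvier. Its phrenic arrays, replicates 1 to 4, read 10.24, 9.72, 9.62 and 10.09. The C3-C5 GFP-only arrays read 9.39, 9.21, 9.11 and 9.14, and the LMC radial arrays 9.41, 9.41 and 9.10. All 4 phrenic arrays were above the other 7, whose ranges overlapped. The phrenic mean was 0.71 ± 0.15 above C3-C5 GFP-only, or 1.63-fold (adjusted p = 0.0401 in limma), and 0.61 ± 0.16 above LMC radial, or 1.53-fold (adjusted p = 0.0495 in limma). Both calls lay near the threshold. Of the 24 alternative analyses, 11 kept the call against C3-C5 GFP-only and 6 the call against LMC radial. Both were lost with median centring and in fits of the 2 types alone. The call against LMC radial was also lost with quantile normalization and with array weights. Against C3-C5 GFP-only the call was lost with 8 of the 11 arrays left out in turn (phrenic 1 and 4, C3-C5 GFP-only 1 to 4, LMC radial 1 and 2), and leaving out 1 array gave values from 0.60 to 0.81 and adjusted p up to 0.131 in limma. Against LMC radial it was lost with 10 of 11, all but phrenic replicate 3, and leaving out 1 array gave values from 0.50 to 0.71 and adjusted p up to 0.175 in limma. Of the other Scn8a probe sets above background, 1 passed against LMC radial (0.80 ± 0.21, adjusted p = 0.0458 in limma) and another did not (0.31 ± 0.18, adjusted p = 0.339 in limma). Against C3-C5 GFP-only these gave 0.24 ± 0.19 and 0.22 ± 0.17, so the size depends on the probe set. The mean over the gene's probe sets was 0.25 ± 0.08 above C3-C5 GFP-only and did not pass (adjusted p = 0.129 in limma), and 0.34 ± 0.08 above LMC radial, which passed (adjusted p = 0.0311 in limma). That mean also takes in probe sets near background, at 4.73 and 2.87 over all arrays, which can make a difference smaller. With the mesenchyme list as a covariate the values were 0.59 ± 0.24 over C3-C5 GFP-only and 0.58 ± 0.18 over LMC radial. Neither call held (adjusted p = 0.466 and 0.0934 in limma). The list averages of phrenic and C3-C5 GFP-only arrays do not overlap, so between these types the fit can hardly tell the list from the type. The promoter windows printed above show that RefSeq holds 2 starts for this gene, and the arrays do not tell which was used.

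Scn9a encodes a channel best known from nociceptors, which amplifies small depolarizations. Its phrenic arrays read 10.56, 10.47, 10.60 and 10.26, the C3-C5 GFP-only arrays 9.92, 10.15, 10.10 and 10.19, and the LMC radial arrays 9.88, 9.81 and 10.11. Phrenic arrays lay above all others, and the other types overlapped. Phrenic minus LMC radial was 0.54 ± 0.12, or 1.45-fold (adjusted p = 0.0267 in limma), and phrenic minus C3-C5 GFP-only was 0.39 ± 0.12 and did not pass (adjusted p = 0.142 in limma). The call was lost without phrenic replicate 1, 2 or 3 or LMC radial replicate 1 or 2 (values from 0.48 to 0.63, adjusted p up to 0.107 in limma). The suffix of this probe set marks probes that may also bind other transcripts. A second Scn9a probe set without that mark gave a larger difference of 0.80 ± 0.17 from LMC radial (adjusted p = 0.0171 in limma) and 0.62 ± 0.16 from C3-C5 GFP-only (adjusted p = 0.0763 in limma). A further pair gave 1.01 ± 0.26 and 1.01 ± 0.25 over C3-C5 GFP-only (adjusted p = 0.0848 and 0.0719 in limma). Against LMC radial the phrenic means of that pair were 9.67 against 8.65 and 9.26 against 8.34, and neither probe set passed. All 4 probe sets above background were thus higher on average in phrenic samples than in either other type, and the mean over the gene's probe sets passed against C3-C5 GFP-only too (0.62 ± 0.13, adjusted p = 0.0228 in limma). Sensory neurons are known for Scn9a, Scn10a and Scn11a. Here the nociceptor genes Scn10a and Scn11a were below 5 on all 11 arrays. Of the 6 measured sensory markers 0 passed in phrenic against LMC radial in limma (2 at an unadjusted p under 0.05), and 1 fell in phrenic against C3-C5 GFP-only. Their part in the Scn9a values was not tested.

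**Figure D3:**
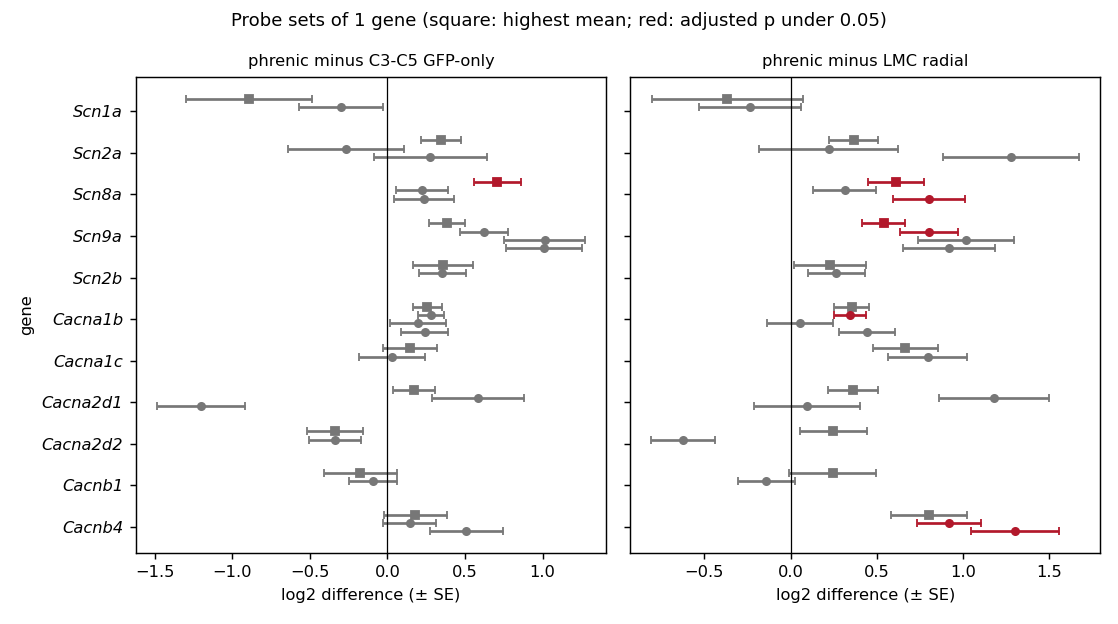
Log2 difference ± SE of each probe set with a mean of 5 or more in at least 1 type, for the 11 genes with several such probe sets. Phrenic minus C3-C5 GFP-only is at left and phrenic minus LMC radial at right, a square is the probe set with the highest mean, and red marks adjusted p under 0.05 in limma. Probe sets of Scn9a and Cacnb4 lie on 1 side of 0, and those of Cacna2d1, Cacna2d2, Scn2a (0.35, -0.26 and 0.28 from C3-C5 GFP-only) and Cacnb1 (0.25 and -0.14 from LMC radial) lie on both sides in 1 panel each.

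Scn9a lies on chromosome 2 in a run of 5 sodium channel alpha genes, in the order Scn3a, Scn2a, Scn1a, Scn9a and Scn7a in RefSeq on GRCm38.p6. Scn1a and Scn9a are adjacent there, as are Scn9a and Scn7a, and 3 other protein-coding genes separate Scn2a from Scn1a. The other 4 genes of the run gave no call. Scn3a, the embryonic neuronal channel, hardly varied, at 11.80 ± 0.10 (SD, n = 4) over phrenic arrays, 11.76 ± 0.13 (n = 4) over those of C3-C5 GFP-only cells and 11.75 ± 0.17 (n = 3) over LMC radial arrays. Scn2a, the channel of young axons, read 8.99, 8.53, 8.48 and 8.39 on phrenic, 8.35, 8.24, 8.23 and 8.18 on C3-C5 GFP-only and 8.20, 8.18 and 8.31 on LMC radial arrays. On this brightest probe set the phrenic arrays were all higher, by 0.37 ± 0.14 over LMC radial (adjusted p = 0.155 in limma). A second Scn2a probe set read 7.21, 8.56, 9.01 and 8.09 on phrenic arrays, with replicate 1 the lowest of 11, and its phrenic mean was -0.26 ± 0.37 from C3-C5 GFP-only and 0.22 ± 0.40 from LMC radial samples. Probe sets of this gene thus disagree.

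Scn1a and Scn7a turned on a single array. Scn1a, a channel of fast-spiking neurons, read 8.57, 9.07, 8.68 and 6.72 on phrenic arrays, 8.99, 9.32, 9.27 and 9.02 on C3-C5 GFP-only and 8.82, 8.48 and 8.58 on LMC radial arrays. Phrenic replicate 4 lay far below the others. Scn7a, a channel relative known from glia and Schwann cells, read 4.55, 4.66, 5.17 and 6.71 on phrenic arrays and at most 4.91 on any other. Phrenic minus C3-C5 GFP-only was -0.89 ± 0.40 for Scn1a and 0.91 ± 0.44 for Scn7a, without passing. Without phrenic replicate 4 these became -0.38 ± 0.15 and 0.43 ± 0.29. That array also had the highest Schwann or crest, progenitor, interneuron and mesenchyme averages given above, and their part in these values was not tested.

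In the sodium channel beta family 0 of 3 genes passed in any comparison in limma, with 0, 1 and 1 at an unadjusted p under 0.05 in phrenic against C3-C5 GFP-only, phrenic against LMC radial and LMC radial against C3-C5 GFP-only. Scn3b, a beta subunit of embryonic neurons, read 9.36, 9.98, 10.09 and 9.45 on phrenic, 9.31, 9.87, 9.84 and 9.26 on C3-C5 GFP-only and 9.03, 9.04 and 9.18 on LMC radial arrays. LMC radial arrays were the lowest 3 of 11, and phrenic minus LMC radial was 0.64 ± 0.22 without passing (adjusted p = 0.111 in limma). Within phrenic and C3-C5 GFP-only samples, replicates 2 and 3 were the higher ones, and these are the 4 arrays with the lower 25th percentile. Scn2b, linked by a disulfide bond to the alpha subunit, averaged 8.61, 8.26 and 8.38 across phrenic, C3-C5 GFP-only, then LMC radial samples. Scn4b was below 5 on every array.

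Counted by comparison, 1 of 27 members rose and 1 fell in phrenic against C3-C5 GFP-only, or 7.41%, beside 1.96% of all probe sets (0.973% higher, 0.986% lower) and 2.74% of all genes. In phrenic against LMC radial 2 rose and 1 fell, or 11.1%, beside 6.61% of probe sets (3.48% higher, 3.14% lower) and 6.88% of genes. In LMC radial against C3-C5 GFP-only 0 rose and 1 fell, or 3.7%, beside 3.76% of probe sets (1.88% higher, 1.88% lower) and 3.73% of genes. These shares rest on 1 to 3 genes each, and the comparisons share samples. At an unadjusted p under 0.05 the counts were 6, 12 and 6 of 27. Arrays of the 2 types did not overlap for 6, 9 and 9 members in the same order (22.2%, 33.3% and 33.3%), beside 7.49%, 18.7% and 23.1% of all probe sets. Of the 20 members at 5 or more in some type, 15 had a higher phrenic than LMC radial mean, with a median difference of 0.36, beside 59.4% and 0.07 over all 10886 genes at that level. Against C3-C5 GFP-only 12 of 20 did, with a median of 0.13, beside 47.1% and -0.02 over all genes at that level.

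**Figure D4:**
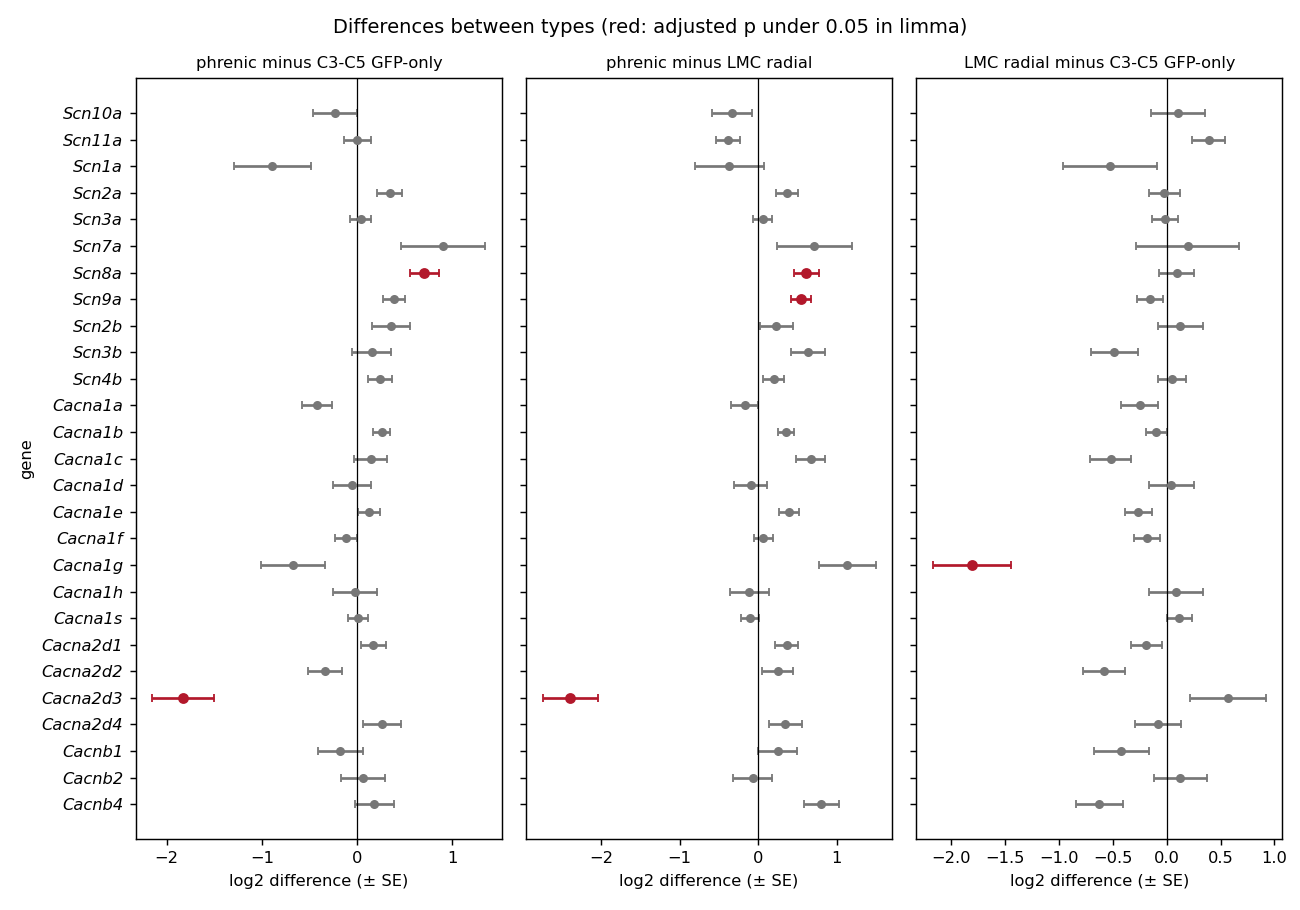
Log2 difference ± SE of each of the 27 genes in the 3 pairwise comparisons, with red marking adjusted p under 0.05 in limma. The largest differences are those of Cacna2d3 (-2.39 and -1.82) and Cacna1g (-1.81), and the unmarked genes lie between -0.89 and 1.13.

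The 7 members below 5 on every array were Cacna1f, Cacna1s, Cacna2d4, Cacnb2, Scn10a, Scn11a and Scn4b. Their values ranged from 2.38 to 4.57, and for them no statement on a difference is possible beyond being near background. That is 25.9% of the members, beside 40.2% of all genes below 5 in every type.

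Partners of sodium channels gave a few calls. The lists of partner and calcium handling genes below had 0 to 3 calls in either direction in a comparison, too few to set against the 1.96%, 6.61% and 3.76% of all probe sets that passed in phrenic against C3-C5 GFP-only, phrenic against LMC radial and LMC radial against C3-C5 GFP-only. The FGF homologous factors bind the tail of the alpha subunit and shift its inactivation. Fgf13 was 0.68 ± 0.14 higher in phrenic than in LMC radial samples (adjusted p = 0.0142 in limma). Fgf11 was 0.88 ± 0.17 higher in phrenic than in LMC radial samples (adjusted p = 0.0132 in limma), and Fgf12 was lower in LMC radial than in C3-C5 GFP-only samples (-1.62 ± 0.33, adjusted p = 0.0231 in limma). Of the 11 genes of the list with the ankyrins, spectrins and adhesion proteins that anchor these channels, 2 rose and 0 fell in phrenic against LMC radial, and 0 rose and 2 fell in LMC radial against C3-C5 GFP-only. In phrenic against C3-C5 GFP-only 0 passed in limma, with 3 at an unadjusted p under 0.05. Of the 4 measured genes of the sodium leak channel complex, Unc80 was higher in phrenic than in LMC radial samples, by at least 3.08-fold with values below 5 raised to 5 (adjusted p = 0.0334 in limma). With values below 5 raised to 5 in the fit the call was lost (1.62 ± 0.49, adjusted p = 0.0827 in limma), and phrenic replicate 4 was at 4.65 against 6.91 to 7.51 on the other phrenic arrays.

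Regulators of calcium channels changed in both directions. Rem2, a small GTPase that inhibits high-voltage calcium channels, read 9.13, 9.24, 8.89 and 9.08 on phrenic, 8.74, 8.74, 8.52 and 8.46 on C3-C5 GFP-only and 7.94, 8.09 and 7.79 on LMC radial arrays. It was highest in phrenic and lowest in LMC radial samples, at 1.14 ± 0.13 for phrenic minus LMC radial (adjusted p = 0.000419 in limma). Rimbp2, a scaffold that ties channels to release sites, was lower in phrenic than in C3-C5 GFP-only samples (-0.71 ± 0.13, adjusted p = 0.0212 in limma). Erc1, an active zone scaffold, was higher there (0.50 ± 0.11, adjusted p = 0.0406 in limma), a call that was lost with the replicate block (adjusted p = 0.0632 in limma). Stac, an adaptor of L-type channels, was 1.07 ± 0.28 higher in phrenic than in LMC radial samples (adjusted p = 0.0476 in limma), and that call was lost with values below 5 raised to 5 (adjusted p = 0.0569 in limma) and with the replicate block (adjusted p = 0.105 in limma). Of the 15 measured regulators, 1 rose and 1 fell in phrenic against C3-C5 GFP-only, 2 rose and 0 fell against LMC radial, and 0 rose and 1 fell in LMC radial against C3-C5 GFP-only. None of the 8 gamma subunit genes (Cacng1 to Cacng8) passed in limma, with 2, 1 and 2 at an unadjusted p under 0.05.

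Genes that store, buffer or remove calcium also gave calls. Calb1, the buffer calbindin, read 6.49, 7.12, 6.75 and 5.24 on phrenic, 7.79, 7.18, 7.34 and 7.09 on C3-C5 GFP-only and 4.60, 4.09 and 3.93 on LMC radial arrays. LMC radial arrays were all near background and overlapped neither other type. Calb1 was at least 5.10-fold lower in LMC radial than in C3-C5 GFP-only samples (adjusted p = 0.00183 in limma) and at least 2.64-fold higher in phrenic than in LMC radial samples (adjusted p = 0.00623 in limma). With values below 5 raised to 5 in the fit the latter call was lost (1.40 ± 0.37, adjusted p = 0.0529 in limma). Kcnip1, a calcium sensor that binds A-type potassium channels, was ordered like Cacna2d3, with 7.38 ± 0.10 (SD, n = 4) over phrenic arrays, 8.58 ± 0.35 (n = 4) over those of C3-C5 GFP-only cells and 9.33 ± 0.02 (n = 3) over LMC radial arrays. Phrenic minus LMC radial was -1.95 ± 0.17 (adjusted p = 7.09e-05 in limma) and phrenic minus C3-C5 GFP-only -1.21 ± 0.15 (adjusted p = 0.00242 in limma). Ryr3, a calcium release channel of the endoplasmic reticulum, was 3.80-fold higher in phrenic than in LMC radial samples (1.93 ± 0.24, adjusted p = 0.000798 in limma). Atp2b2, a plasma membrane calcium pump, was higher in phrenic than in C3-C5 GFP-only (0.58 ± 0.11, adjusted p = 0.0216 in limma) and LMC radial samples (0.51 ± 0.12, adjusted p = 0.0256 in limma). Camk2d, a calcium-dependent kinase, was 2.98-fold higher in phrenic than in LMC radial samples (adjusted p = 0.0171 in limma). Slc8a2, a sodium-calcium exchanger, and Vsnl1, a neuronal calcium sensor, were lower in LMC radial than in C3-C5 GFP-only samples (-0.66 ± 0.12 and -2.01 ± 0.47, adjusted p = 0.012 and 0.0428 in limma). Pvalb passed in 2 comparisons, but its means were below 5 in every type (3.64, 4.82 and 3.65 across phrenic, C3-C5 GFP-only, then LMC radial samples), and neither call held with values below 5 raised to 5 (difference -0.04 each time).

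**Figure D5:**
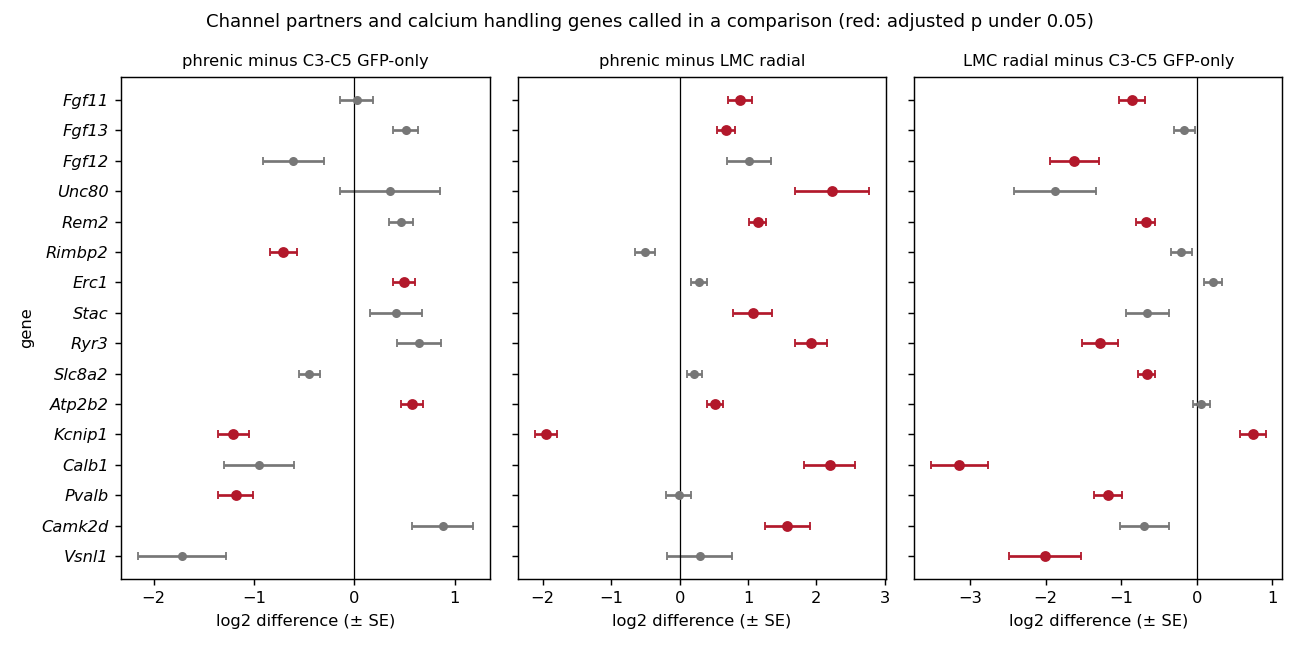
Log2 difference ± SE of the 16 channel partner and calcium handling genes that passed in at least 1 comparison (red, adjusted p under 0.05 in limma) in each of the 3 comparisons. In phrenic against LMC radial Kcnip1 lies at -1.95 and Ryr3 at 1.93. The points of Calb1 and Unc80 that involve LMC radial samples are drawn from means below 5 there. All points of Pvalb are drawn from means below 5 in every type. The size of these points is not a measured one.

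In the list of 14 measured buffers and sensors 2 rose and 1 fell in phrenic against LMC radial, 0 rose and 2 fell against C3-C5 GFP-only, and 1 rose and 3 fell in LMC radial against C3-C5 GFP-only. Of the 10 measured pumps and exchangers 1 rose and 0 fell in phrenic against each other type, and 0 rose and 1 fell in LMC radial against C3-C5 GFP-only. Of the 10 measured release genes 1 rose in phrenic against LMC radial and 1 fell in LMC radial against C3-C5 GFP-only, the gene being Ryr3 each time. Of the 24 calls in these partner lists 8 held whichever single array was left out, and the other 16 were lost without at least 1 array (adjusted p up to 0.169 in limma). Erc1 was lost without any 1 array but phrenic replicate 4, Stac without any but phrenic replicate 1 and C3-C5 GFP-only replicate 4, and Unc80 without phrenic 1, 2 or 3, C3-C5 GFP-only 2 or 3 or any LMC radial array. Vsnl1 was lost without phrenic 1, C3-C5 GFP-only 1, 2 or 3 or any LMC radial array, and Slc8a2 without LMC radial 1. Rimbp2 was lost without phrenic 1 or C3-C5 GFP-only 1, 2 or 3. Fgf13 and Camk2d were lost without LMC radial 2 or 3, and Fgf11 in phrenic against LMC radial without LMC radial 1 or 2. Fgf11, Fgf12 and Ryr3 in LMC radial against C3-C5 GFP-only were lost without C3-C5 GFP-only 2 or 3 or LMC radial 1 or 2. Atp2b2 was lost without phrenic 1 or C3-C5 GFP-only 2 or 4 against C3-C5 GFP-only, and without phrenic 2 or any LMC radial array against LMC radial. In LMC radial against C3-C5 GFP-only, Rem2 was lost without C3-C5 GFP-only 2 or LMC radial 1 or 3, and Kcnip1 without C3-C5 GFP-only 2, 3 or 4 or any LMC radial array. Those that held were Rem2 and Ryr3 in phrenic against LMC radial, Kcnip1 in phrenic against both other types, Calb1 in LMC radial against both other types, and Pvalb in both of its comparisons. The Actb 3′ excess as a covariate removed 0 of 5 calls between phrenic and C3-C5 GFP-only samples, 6 of 10 between phrenic and LMC radial samples, and 7 of 9 between LMC radial and C3-C5 GFP-only samples. With the mesenchyme list as a covariate 5, 1 and 7 were lost in the same order, and within the 7 arrays of higher 25th percentile 5, 7 and 9. Only Rem2, Ryr3 and Kcnip1 in phrenic against LMC radial passed in each of the 24 alternatives. With the mean over a gene's probe sets Erc1 was lost at 0.18 ± 0.08 (adjusted p = 0.321 in limma), and in LMC radial against C3-C5 GFP-only Slc8a2 was lost at -0.35 ± 0.10 (adjusted p = 0.0679 in limma), Kcnip1 at 0.30 ± 0.20 (adjusted p = 0.419 in limma) and Ryr3 at -0.70 ± 0.20 (adjusted p = 0.0684 in limma).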

How the data were processed

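The deposited table held log2 values, 1 per probe set and array, of 11 Affymetrix arrays. Per the submitters' processing notes the authors used RMA, which by design corrects background, normalizes by quantiles and sums up each probe set. Its version is not given in the sources used here. Per the labels' protocols, cRNA was made from 6 ug of RNA. Of 45101 probe sets, 64 controls were left out, 34945 of the rest had 1 symbol, 932 several and 9160 none, by GEO's platform annotation. limma 3.58.1 (R 4.3.3) fitted the 3 type means (8 residual and 2.92 prior degrees of freedom), with 3 two-sided pairwise comparisons and a moderated F test. No probe set was filtered. Precision is limited by how few arrays there are. The fit was tested on simulated data. Members and lists were chosen with earlier results of these data known. All members could be named, and listed partner genes only if they passed, at most 5 per list by smallest F-test p. A fold with a mean below 5 was computed with values below 5 raised to 5.

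Same-numbered arrays deviated together between phrenic and C3-C5 GFP-only samples (4 pairs, r from 0.13 to 0.22). They did not with LMC radial samples (6 pairs, r from -0.08 to 0.05). Of the 12 differently numbered phrenic and C3-C5 GFP-only pairs, r reached 0.28 (phrenic 3 with C3-C5 GFP-only 2). It was 0.27 for phrenic 2 with C3-C5 GFP-only 3, 0.19 for 1 with 4 and 0.18 for 4 with 1. The remaining pairs had r from -0.25 to -0.13. High r thus followed the percentile sets given above, and a pairing by number cannot be told from them. The main fit used no pairing, and the number served only as the replicate block of an alternative. The labels do not say what the numbers mean. Alternatives were other normalizations, filters, variance models, a replicate block, gene means, fits of 2 types, covariates, array subsets and leaving out each array.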

Additional observations from a re-analysis of the deposited data

Results flagged for a closer look

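Of 54 sets of 4 arrays (27 genes in phrenic and in C3-C5 GFP-only samples), 3 held an array far from the other 3 by Dixon's test, which flags about 1 in 20 by chance. For Cacna1a, phrenic replicate 1 was low at 6.40, with the others between 6.96 and 7.06. For Cacna2d1, C3-C5 GFP-only replicate 1 was low at 11.03, with the others between 11.40 and 11.45. For Cacnb2, C3-C5 GFP-only replicate 1 was low at 3.37, with the others between 3.87 and 3.95, all near background. None of the 3 genes passed in a comparison.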

How the results depend on the processing

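Over 24 alternatives, 1 of them (without phrenic replicates 3 and 4) chosen after seeing the data, no call of a member turned its direction, and 92 of the 144 values recomputed for the 6 calls passed. The count of members that passed, 2 in phrenic against C3-C5 GFP-only, was 1 with median centring and 0 in fits of the 2 types only, within the 7 arrays of higher 25th percentile and with the mesenchyme covariate (6, 3 and 9 at an unadjusted p under 0.05 in limma). The count of 3 in phrenic against LMC radial was 1 with median centring, in fits of 2 types, within the 7 arrays and with the Actb covariate, and 5 with gene means. With the replicate block it was 5, Cacna1c and Scn3b being added, though same-numbered arrays of these types did not deviate together. The count of 1 in LMC radial against C3-C5 GFP-only was 3 with array weights and in fits of 2 types, 2 with gene means and 0 within the 7 arrays (3 at an unadjusted p under 0.05). The F test count of 4 was 2 with median centring and with the mesenchyme covariate and 0 within the 7 arrays (4 at an unadjusted p under 0.05). With 1 array left out the counts ran from 0 to 2, 1 to 4, 0 to 1 and 1 to 4 in the same order. The cause was not tested, beyond the smaller number of arrays in the subsets. With the block Cacna2d3 and Scn8a, the 2 members called in phrenic against C3-C5 GFP-only, both passed. Over all probe sets the counts of 882, 2979 and 1694 calls ranged from 127 to 1300, 778 to 4266 and 98 to 6685, lowest within the 7 arrays each time. Median centring moved the median of all probe sets in phrenic against LMC radial from -0.01 to -0.10, and 14 rather than 15 of the 20 members above background were then higher in phrenic samples. The median difference of these members, 0.36 as deposited, was 0.31 with quantile normalization and 0.27 with median centring. Over all genes at that level the median of 0.07 became -0.02 under both, so the 0.07 depends on scaling. Array medians were 4.48 to 4.51 for LMC radial and 4.54 to 4.63 for phrenic. For the 7 members near background these arrays cannot show a difference.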
